A study of Mus musculus with 8 samples.

Results

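The transcripts of 31 genes for cholesterol synthesis, for its control by SREBP and LXR, and for the movement of sterol in and out of cells were examined in neonatal cardiomyocytes (NCMs) after exposure to diesel exhaust (DE) or filtered air (FA) in utero. The genes were chosen by symbol for their place in the pathway, with earlier results of these data known. All 31 were found among the 27179 genes of the count table. They comprise 18 synthesis enzymes, 5 regulators of SREBP, 4 genes of the LXR and efflux arm, and 4 genes of sterol trafficking and esterification. No lipoprotein receptor is among them.

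C57Bl/6 J dams were exposed to FA or DE from embryonic day 0.5 until late gestation, and hearts of their male offspring were taken on postnatal day 0. Per the methods, DE was given for some hours of each weekday and not continuously, at a regulated concentration of fine particles. Each library was made from the NCMs of 1 heart, with 4 FA libraries (FA replicates 2, 3, 4 and 6) and 4 DE libraries (DE replicates 1, 3, 5 and 7). Atrial tissue had been trimmed away, and the cell suspension was preplated in serum-containing medium for fibroblasts to attach. The RNA is thus that of a cardiomyocyte-enriched suspension and not of sorted cells. What this medium did to the transcripts was not tested. The litters are not stated, and p-values measure the spread between these libraries. The sample names hold 11 in every FA library and in DE replicates 1 and 7, and 12 in DE replicates 3 and 5, a number whose meaning is not stated in the sources used here.

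Cholesterol is built from acetyl-CoA. The mevalonate steps yield farnesyl diphosphate, which also feeds ubiquinone, dolichol and prenylated proteins, and the later steps turn it into squalene, lanosterol and cholesterol. When sterol is low in the endoplasmic reticulum, Scap carries the SREBP precursors (from Srebf1 and Srebf2) to the Golgi for cleavage and the released factors switch on the enzyme genes, whereas Insig1 and Insig2 hold the complex back when sterol is plentiful. Oxysterols activate the LXR receptors, which switch on the efflux pumps Abca1 and Abcg1. Cholesterol taken up in lipoproteins leaves the lysosome through Npc2 and Npc1 and is stored as ester by Soat1.

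SREBP factors bind the enzyme promoters together with NF-Y, whose box is CCAAT. The 250 bases before the RefSeq start site (GRCm38.p6, the assembly also called mm10) were therefore searched on both strands for CCAAT, for TCACNCCAC (a form of the sterol regulatory element), for a stricter element form of 10 letters that contains it, and for the E-box CACGTG. Of the 31 genes, 25 had promoters in the table, 34 in all. CCAAT was present in 21 of these 34 promoters (61.8%), which belong to 20 genes, against 33.8% of the 32851 promoters of all genes and 34.9% of those of tested genes. CACGTG was found in 6 (17.6%, against 6.02% of all promoters and 8.09% of those of tested genes) and TCACNCCAC in 1 (2.94%, against 1.05% and 1.02%), that of Hmgcs1. The stricter form was in 0 of 34 and in 0.0731% of all promoters. These matches are letters in a window and not sites shown to be bound, and only exact matches were counted. The promoters below belong to Mvk and Hsd17b7, the 2 of the 4 called genes with an entry in the table (Fdps and Npc1 were not searched), to Hmgcs1, the one with the sterol element form, and to the regulators Insig1 and Srebf2. They are printed 5′ to 3′ with the matches in capitals, and ATTGG is CCAAT read on the other strand.
Mvk (chr5:114444019-114444268, plus strand): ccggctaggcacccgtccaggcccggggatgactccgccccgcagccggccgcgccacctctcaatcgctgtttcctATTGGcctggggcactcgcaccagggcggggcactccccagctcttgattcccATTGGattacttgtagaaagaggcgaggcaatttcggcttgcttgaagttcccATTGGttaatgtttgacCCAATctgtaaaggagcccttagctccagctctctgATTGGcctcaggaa
Hsd17b7 (chr1:169969206-169969455, minus strand): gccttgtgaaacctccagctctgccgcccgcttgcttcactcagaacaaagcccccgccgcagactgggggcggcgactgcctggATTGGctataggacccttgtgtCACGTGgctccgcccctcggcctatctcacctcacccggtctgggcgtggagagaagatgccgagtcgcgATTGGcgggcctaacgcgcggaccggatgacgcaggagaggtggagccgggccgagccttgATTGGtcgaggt
Hmgcs1 (chr13:119690101-119690350, plus strand): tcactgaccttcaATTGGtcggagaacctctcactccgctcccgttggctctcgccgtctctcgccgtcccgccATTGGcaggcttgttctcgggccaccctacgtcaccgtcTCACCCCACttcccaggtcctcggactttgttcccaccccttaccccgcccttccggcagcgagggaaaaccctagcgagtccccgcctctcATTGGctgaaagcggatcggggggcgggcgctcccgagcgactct
Insig1 (chr5:28071162-28071411, plus strand): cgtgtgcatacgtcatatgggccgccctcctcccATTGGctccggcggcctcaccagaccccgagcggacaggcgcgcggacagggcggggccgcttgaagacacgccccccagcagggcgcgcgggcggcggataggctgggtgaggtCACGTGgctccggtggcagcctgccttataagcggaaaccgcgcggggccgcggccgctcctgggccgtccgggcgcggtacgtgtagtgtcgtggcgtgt
Srebf2 (chr15:82147019-82147268, plus strand): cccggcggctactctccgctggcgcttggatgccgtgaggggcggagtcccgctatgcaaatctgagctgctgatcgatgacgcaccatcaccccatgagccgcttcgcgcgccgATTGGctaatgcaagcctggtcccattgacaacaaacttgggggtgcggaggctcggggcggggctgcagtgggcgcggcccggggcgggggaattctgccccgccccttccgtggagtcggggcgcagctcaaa
In the Mvk promoter, 5 CCAAT boxes lie in the window, the nearest beginning 14 bases before the start site. The Hsd17b7 promoter holds 3 CCAAT boxes and an E-box that begins 143 bases before the start site. Hmgcs1 has the sterol element form 137 bases before its start together with 3 CCAAT boxes, Insig1 has 1 CCAAT box and 1 E-box, and Srebf2 has 1 CCAAT box. Promoters of Mvk, which was higher in DE, of Hsd17b7, which was lower, and of Hmgcs1, which was not called, thus all contain the box more than once. The Srebf2 window also holds a stretch that differs from the stricter sterol element form in its last letter. Such near matches were not searched for.

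Between 17943024 and 39839737 fragments were counted per library (17943024 to 38619126 in FA, 18683325 to 39839737 in DE), and 14966 genes passed the filter on low counts. Values are given as CPM, counts put on a common library size with TMM factors, and groups as mean ± SD over 4 libraries. Values of single libraries follow the order of the replicate numbers. The DE and FA groups were compared with the quasi-likelihood test of edgeR, and every adjusted p below comes from it, by Benjamini-Hochberg over all genes tested in the fit (14966 with all 8 libraries), unless another tool is named. Calls required an adjusted p no greater than 0.05 together with a change of at least 25%. By this rule 5.8% of all tested genes were called (3.58% higher and 2.22% lower in DE). Higher genes were 61.75% of these calls, 78.7% when counts were scaled by library totals alone, 38.6% with the test run against a 25% difference, and 49.65% without FA replicate 3. Summed levels of 7 cardiomyocyte markers were between 56780 and 60180 CPM in FA and between 48500 and 56530 CPM in DE, with Myh6 called lower, Myh7 called higher and the other 5 not called. The 7 fibroblast markers summed to 1976 to 3404 CPM in FA and 3604 to 6091 CPM in DE, with 2 of 7 called higher (Col1a1 and Dcn) and none at 0. The 5 macrophage and leukocyte markers with enough counts were uncalled, and the list of 8 summed to 17.1 to 21.8 CPM in FA and 22.8 to 34.05 CPM in DE. None of the endothelial, smooth muscle and pericyte, hepatocyte or atrial markers passed the call, and 1 of 5 erythroid markers was called higher. The part of these other cells in the differences below was not tested, and in bulk RNA fewer cells of a type and less RNA per cell cannot be told apart.

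All 31 genes passed the filter on low counts. Mvk and Fdps, enzymes of the mevalonate steps, rose in DE by 1.59-fold and 1.63-fold, Hsd17b7, an enzyme of the sterol steps, fell 1.67-fold, and Npc1, the lysosomal cholesterol exporter, fell 1.85-fold. The other 27 genes were not called. When the test was run against a 25% difference instead of 0, Npc1 stayed called (adjusted p = 0.0214), and Mvk, Fdps and Hsd17b7 did not (0.191, 0.201 and 0.164). The 4 calls are 12.9% of the 31 genes, against 5.8% of all tested genes. As the genes were chosen with earlier results of these data known, this share and those below only describe the list. At an unadjusted p under 0.05 there were 13 genes (41.9%, 9 higher and 4 lower), against 25.6% of all tested genes. In total 22 of the 31 log2 fold changes lay above 0 (71.0%, against 50.55% of all tested genes), and their median was 0.15, beside 0.0037 over all tested genes. The groups did not overlap for 9 genes. For Mvk, Fdps, Fdft1, Tm7sf2, Msmo1 and Srebf1 every DE library lay above every FA library, an order found in 7.43% of all tested genes, and for Scap, Hsd17b7 and Npc1 every DE library lay below, an order found in 7.26%.

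**Figure D1:**
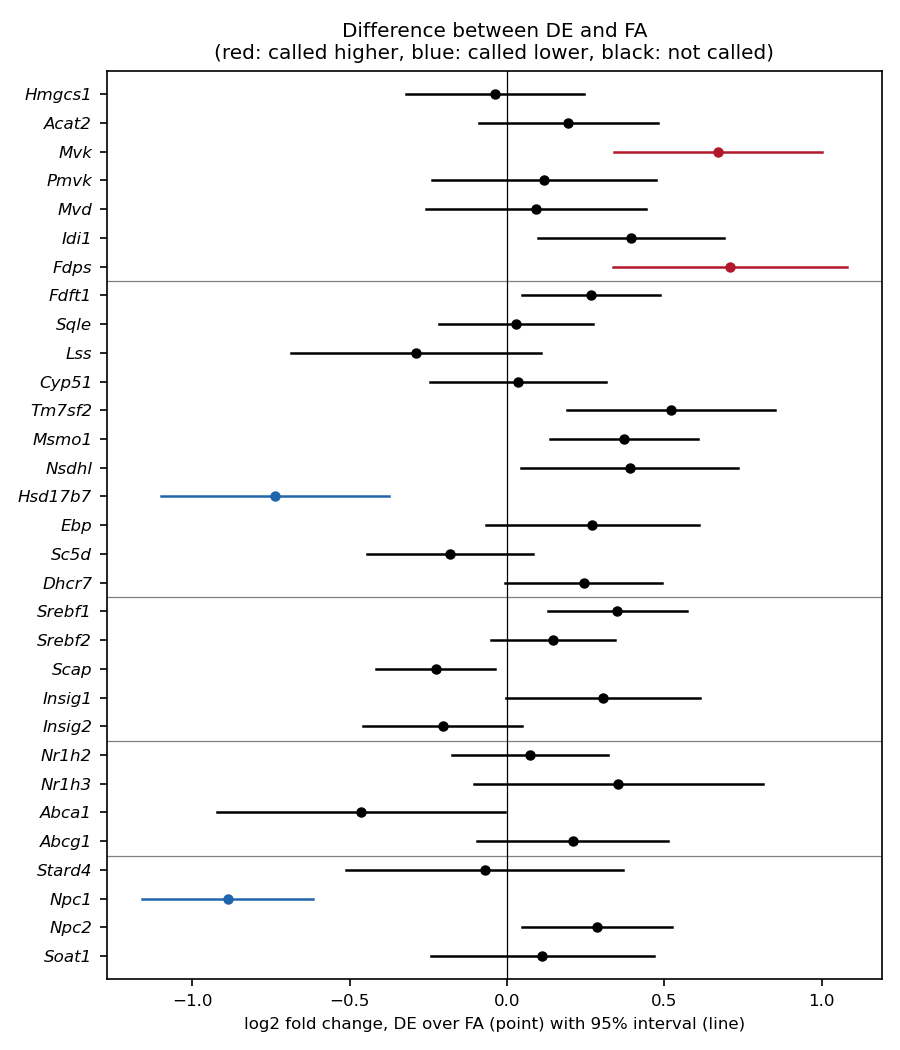
Log2 fold change of DE over FA for each of the 31 genes (point) with its 95% interval (line) from edgeR's quasi-likelihood fit over 4 FA and 4 DE libraries, in role order. Horizontal lines separate mevalonate steps, squalene and sterol steps, SREBP control, LXR and efflux, and trafficking. Mvk and Fdps (red) are the called genes to the right of 0, and Hsd17b7 and Npc1 (blue) those to the left.

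Among the 7 enzymes of the mevalonate steps, 2 were called higher and 0 lower (against 3.58% and 2.22% of all tested genes), 3 had an unadjusted p under 0.05 (against 25.6%), 6 of 7 log2 fold changes were above 0, and the median was 0.19 (range -0.04 to 0.71). That median was 0.071 with the number in the sample name as a term. Mvk, which phosphorylates mevalonate (Entrez gene 17855; GRCm38.p6 chromosome 5, positions 114444264 to 114460591), was at 4.89, 5.83, 5.135 and 7.57 CPM in the FA libraries and at 9.68, 9.70, 9.15 and 8.58 CPM in the DE libraries. Every DE library lay above the highest FA library, FA replicate 6, and the DE libraries lay close together. Group means were 5.86 ± 1.21 CPM (FA) and 9.28 ± 0.529 CPM (DE; SD, n = 4 each), with a log2 fold change of 0.67 (SE 0.15, adjusted p = 0.02945).
Fdps makes farnesyl diphosphate in the last step before the branch to squalene (Entrez gene 110196, chromosome 3 from 89093588 to 89101967). It was at 25.45, 31.5, 25.4 and 44.85 CPM in the FA libraries and at 47.5, 50, 53.2 and 57.1 CPM in the DE libraries. FA replicate 6 stood above the other FA libraries and close to the lowest DE library, but the groups did not overlap. The means were 31.8 ± 9.16 CPM (FA) and 52.0 ± 4.16 CPM (DE; SD, n = 4 each), with a log2 fold change of 0.71 (SE 0.17, adjusted p = 0.0356). A predicted gene without a row in the count table shares 26.7% of the exonic bases of Fdps on the same strand, and how fragments there were counted is not stated.
Both calls depended on the libraries. The call of Mvk was lost without FA replicate 2, 3 or 4 or DE replicate 3 or 5 (adjusted p from 0.0530 to 0.105), and that of Fdps without any of these or DE replicate 7 (0.0654 to 0.116). With 1 library left out the log2 fold change lay between 0.58 and 0.82 for Mvk and between 0.61 and 0.92 for Fdps.

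Idi1, the isomerase that makes dimethylallyl diphosphate, was at 72.1, 63.1, 73.6 and 92.9 CPM in the FA libraries and at 98.7, 84.1, 97.5 and 116 CPM in the DE libraries. Only FA replicate 6 reached into the DE range. Its means were 75.4 ± 12.55 CPM (FA) and 99.2 ± 13.25 CPM (DE; SD, n = 4 each), with a log2 fold change of 0.39 (SE 0.14, adjusted p = 0.104), and it was called without FA replicate 6 (log2 fold change 0.51, adjusted p = 0.0456) but not in the other 7 fits that left out 1 library (adjusted p up to 0.243). Hmgcs1, the synthase at the head of the pathway and a much studied SREBP target, was at 183.5, 144, 182 and 192 CPM in the FA libraries and at 156, 151.5, 168.5 and 208 CPM in the DE libraries. The groups overlapped over most of their range, with a log2 fold change of -0.04 (SE 0.13, adjusted p = 0.877) and a 95% interval of -0.32 to 0.24. Acat2, the acetoacetyl-CoA thiolase, and Pmvk and Mvd, which act after Mvk, had log2 fold changes of 0.19, 0.12 and 0.09 with overlapping groups. The signs of Hmgcs1, Pmvk and Mvd changed under other settings.

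Among the 11 enzymes from squalene to cholesterol, edgeR's quasi-likelihood test called 0 higher and 1 lower (against 3.58% and 2.22% of all tested genes), and at an unadjusted p under 0.05 there were 4 higher and 1 lower (against 25.6% in either direction). DESeq2, which called 6.04% of all genes it tested higher and 4.7% lower, called 2 of the enzymes higher, Tm7sf2 and Msmo1. In this group 8 of 11 log2 fold changes were above 0, and the median was 0.24 (range -0.74 to 0.52). That median was 0.11 with the number in the sample name as a term. Hsd17b7 reduces the keto group left by demethylation of the sterol ring and also reduces estrone to estradiol (Entrez gene 15490, chromosome 1 from 169949535 to 169969242). It was at 78.8, 60.6, 73.25 and 66.9 CPM in the FA libraries and at 41.9, 32.7, 36.1 and 57.7 CPM in the DE libraries. Every DE library lay below the lowest FA library, and the DE libraries were spread more widely than the FA ones, with replicate 7 nearest to FA. The averages were 69.9 ± 7.85 CPM (FA) and 42.1 ± 11.1 CPM (DE; SD, n = 4 each), with a log2 fold change of -0.74 (SE 0.17, adjusted p = 0.0291). The call was lost without FA replicate 2 or 4 or DE replicate 3 or 5 (adjusted p from 0.0652 to 0.0974), with log2 fold changes from -0.72 to -0.63.
Msmo1 and Nsdhl act with Hsd17b7 in that demethylation, and their point estimates lay on the other side of 0. Msmo1, the methylsterol oxidase, was at 25.05, 28.05, 28.05 and 31.03 CPM in the FA libraries and at 31.7, 35.0, 38.7 and 39.55 CPM in the DE libraries. The groups did not overlap, though by a narrow margin. Its means were 28.05 ± 2.44 CPM (FA) and 36.3 ± 3.60 CPM (DE; SD, n = 4 each), with a log2 fold change of 0.37 (SE 0.11, adjusted p = 0.0656), and it was called without DE replicate 1 (adjusted p = 0.0415) but not in the other 7 fits that left out 1 library (adjusted p up to 0.197). Nsdhl, the dehydrogenase between them, was at 12.8 ± 2.99 CPM (FA) and 16.8 ± 1.34 CPM (DE; SD, n = 4 each), with a log2 fold change of 0.39 (SE 0.16, adjusted p = 0.1515), and FA replicate 6 lay within the DE range.
Tm7sf2, a sterol reductase of the endoplasmic reticulum, was at 2.54, 3.39, 2.71 and 3.05 CPM in the FA libraries and at 4.115, 4.22, 4.54 and 3.78 CPM in the DE libraries. All 4 DE libraries lay above all 4 FA libraries at this low level, 809 counts over all libraries. Group means were 2.92 ± 0.376 CPM (FA) and 4.16 ± 0.311 CPM (DE; SD, n = 4 each), with a log2 fold change of 0.52 (SE 0.15, adjusted p = 0.0653). Of the exonic bases of Tm7sf2, 12.1% are shared with Vps51 on the same strand.

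Fdft1, the squalene synthase at the entry to this branch, was at 36.7 ± 3.77 CPM (FA) and 44.2 ± 2.34 CPM (DE; SD, n = 4 each), with a log2 fold change of 0.27 (SE 0.10, adjusted p = 0.127). The groups did not overlap (33.2 to 40.3 CPM in FA and 41.3 to 47.0 CPM in DE). Ctsb, on the other strand, covers 18.3% of the exonic bases of Fdft1, and the strand setting of the counting is not stated. Dhcr7, the reductase that makes cholesterol, and Ebp, a sterol isomerase, had log2 fold changes of 0.24 and 0.27, both uncalled and overlapping. For Sqle, the epoxidase that commits squalene to sterol, and Cyp51, the lanosterol demethylase, the differences were near 0, with 95% intervals of -0.22 to 0.27 and -0.24 to 0.31. Lss, which closes the lanosterol rings, and Sc5d, a desaturase, had log2 fold changes of -0.29 and -0.18, again uncalled and overlapping.

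**Figure D2:**
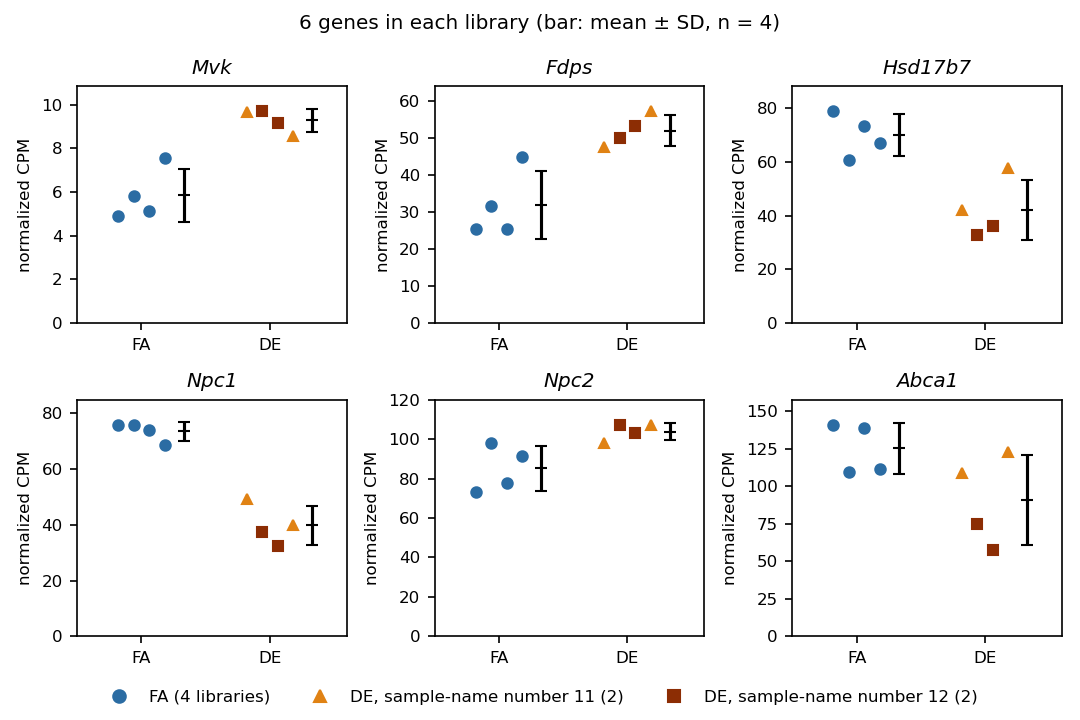
Normalized CPM of Mvk, Fdps, Hsd17b7, Npc1, Npc2 and Abca1 in each of the 8 libraries, on axes that start at 0. Circles are FA libraries, triangles DE replicates 1 and 7 (sample-name number 11), squares DE replicates 3 and 5 (number 12), and bars the mean ± SD of 4 libraries. The groups stand apart for Mvk, Fdps, Hsd17b7 and Npc1, touch for Npc2, and overlap for Abca1, in which the squares lie lowest.

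Levels between genes were compared as mean CPM per kilobase of the longest coding transcript. On this scale the FA level of the 31 genes ran from 0.60 for Nr1h3 to 50.6 for Hmgcs1. Within the mevalonate steps Hmgcs1, Idi1 (24.9), Fdps (23.0) and Pmvk (17.4) were the higher enzymes, and Mvd, Acat2 and Mvk the lower, at 5.10, 4.64 and 3.53. Among the sterol steps Cyp51 (19.1), Hsd17b7 (15.2) and Msmo1 (13.7) led in FA, and Lss (2.02) and Tm7sf2 (1.95) were lowest. In DE the level per kilobase of Fdps was 37.6 and that of Hsd17b7 was 9.13, below Msmo1 at 17.7. Srebf2 was at 24.4 per kilobase in FA and Srebf1 at 9.12.
Summed over the 18 enzymes, the normalized level was 637.9, 603.0, 633.8 and 719.7 CPM in FA and 644.5, 628.2, 699.5 and 787.5 CPM in DE. The sums overlapped, at 648.6 ± 49.9 CPM and 689.9 ± 71.9 CPM (SD, n = 4 each), a ratio of 1.06. Hmgcs1 alone made up 27.0% of the sum in FA and 24.7% in DE. FA replicate 6 was the highest FA library for 13 of the 18 enzymes, and in DE replicates 5 and 7 were highest for 9 and 8.

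**Figure D3:**
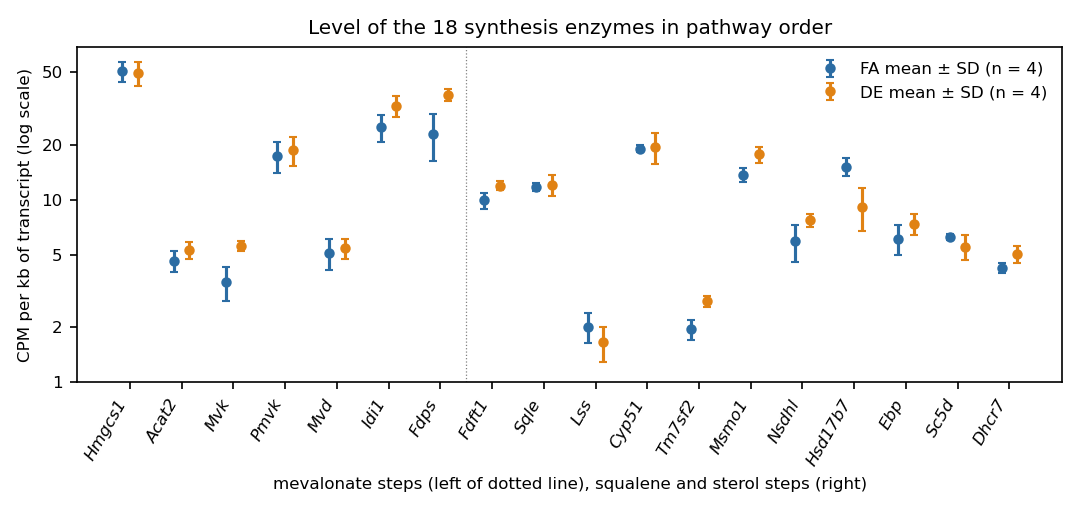
Level of the 18 synthesis enzymes in pathway order, as CPM per kilobase of transcript on a log axis. Points are means and bars SDs over 4 FA (blue) and 4 DE (orange) libraries. The bars separate for Mvk, Fdps, Fdft1, Tm7sf2, Msmo1 and Hsd17b7, and Hmgcs1, the enzyme with the highest level, is at 50.6 in FA and 49.3 in DE.

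None of the 5 regulators of SREBP passed the call in edgeR's quasi-likelihood test, 2 had an unadjusted p under 0.05 (Srebf1 and Scap; 25.6% of all tested genes did), and DESeq2 called 1 higher, Srebf1 (6.04% of all genes it tested). Their median log2 fold change was 0.15 (range -0.23 to 0.35, 3 of 5 above 0), and 0.083 with the number in the sample name as a term. Srebf1, whose product mainly drives fatty acid synthesis, was at 37.3, 40.6, 38.7 and 40.3 CPM in the FA libraries and at 57.9, 44.5, 48.8 and 48.6 CPM in the DE libraries. The groups did not overlap, and DE replicate 1 stood highest. The means were 39.2 ± 1.51 CPM (FA) and 49.97 ± 5.655 CPM (DE; SD, n = 4 each), with a log2 fold change of 0.35 (SE 0.10, adjusted p = 0.0643) and a 95% interval of 0.13 to 0.57. Its adjusted p was 0.0231 in DESeq2, and with 1 library left out it was 0.0806 to 0.186 by edgeR's quasi-likelihood test. Counts per gene do not separate its isoforms from different start sites.
Srebf2, whose product mainly drives cholesterol synthesis, was at 132, 124, 118 and 120.4 CPM in the FA libraries and at 136, 139, 147 and 126 CPM in the DE libraries. FA replicate 2 lay within the DE range. The averages were 124 ± 6.25 CPM (FA) and 137 ± 8.78 CPM (DE; SD, n = 4 each), with a log2 fold change of 0.15 (SE 0.09, adjusted p = 0.324).
Scap, the escort of both precursors, was at 35.9, 37.5, 34.65 and 36.4 CPM in the FA libraries and at 32.8, 30.6, 30.0 and 29.95 CPM in the DE libraries. All DE libraries lay below all FA libraries by a small margin, at means of 36.1 ± 1.19 CPM (FA) and 30.85 ± 1.36 CPM (DE; SD, n = 4 each) and a log2 fold change of -0.23 (SE 0.09, adjusted p = 0.1325). Insig1, itself a target of SREBP, was at 108, 91.5, 105.5 and 126 CPM in the FA libraries and at 106.5, 120.1, 146.5 and 159 CPM in the DE libraries, with DE replicates 1 and 3 inside the FA range and DE replicates 5 and 7 above it. Its means were 108 ± 14.0 CPM (FA) and 133 ± 23.9 CPM (DE; SD, n = 4 each), with a log2 fold change of 0.30 (SE 0.14, adjusted p = 0.201). Insig2, the less sterol-responsive of the pair, was at 35.6, 37.6, 34.5 and 36.9 CPM in the FA libraries and at 32.0, 34.8, 33.8 and 24.6 CPM in the DE libraries, with DE replicate 3 inside the FA range and DE replicate 7 lowest. Its means were 36.15 ± 1.35 CPM (FA) and 31.3 ± 4.60 CPM (DE; SD, n = 4 each), with a log2 fold change of -0.20 (SE 0.12, adjusted p = 0.287). With 1 library left out this lay between -0.26 and -0.11.

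In the LXR and efflux arm, 0 of 4 genes were called by edgeR's quasi-likelihood test or by DESeq2 (against 5.8% of all tested genes in the former), and 1, Abca1, had an unadjusted p under 0.05 (25%, against 25.6%). The median log2 fold change was 0.14. Abca1, the pump that loads cholesterol onto apolipoprotein A-I, was at 141, 109.6, 139 and 112 CPM in the FA libraries and at 109, 74.7, 57.3 and 123 CPM in the DE libraries. DE replicates 3 and 5 were the lowest, and DE replicates 1 and 7 lay near or within the FA range. Group means were 125 ± 17.0 CPM (FA) and 91.0 ± 30.2 CPM (DE; SD, n = 4 each), with a log2 fold change of -0.46 (SE 0.21, adjusted p = 0.191). With 1 library left out the log2 fold change of Abca1 lay between -0.65 and -0.30, without a call (adjusted p from 0.0781 to 0.4045). Abca1 was called lower with 1 surrogate variable in the model (log2 fold change -0.34, adjusted p = 0.0285). Abcg1, the pump for export to larger lipoproteins, was at 11.2 ± 1.23 CPM (FA) and 13.05 ± 2.05 CPM (DE; SD, n = 4 each), with overlapping groups and 0.21 on the log2 scale. The receptors Nr1h2 and Nr1h3 (LXR beta and LXR alpha) had log2 fold changes of 0.07 and 0.35, neither called. The level of Nr1h3 was 1.17 ± 0.188 CPM (FA) and 1.49 ± 0.227 CPM (DE; SD, n = 4 each), which rests on 295 counts over all libraries, and its 95% interval ran from -0.10 to 0.81.

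Of the 4 trafficking and esterification genes, 1 was called (lower, against 2.22% of all tested genes), and their median was 0.02 (range -0.89 to 0.29), which was -0.11 without FA replicate 3 and -0.12 without DE replicate 7. Npc1 (Entrez gene 18145, chromosome 18) encodes the membrane protein that passes cholesterol out of the lysosome, and its loss in Niemann-Pick disease type C traps cholesterol there. It was at 75.6, 75.8, 74.1 and 68.6 CPM in the FA libraries and at 49.3, 37.3, 32.5 and 39.9 CPM in the DE libraries. Every DE library lay well below every FA library, and the FA libraries were close together. The means were 73.5 ± 3.37 CPM (FA) and 39.75 ± 7.06 CPM (DE; SD, n = 4 each), with a log2 fold change of -0.89 (SE 0.12, adjusted p = 0.00306) and a 95% interval of -1.16 to -0.62. It had the smallest p of the 31 genes and stood at place 73 by p among all tested genes. Npc1 stayed called in each of the 22 alternative settings, which are not all separate checks, with log2 fold changes from -1.01 to -0.72. Rmc1, on the other strand, shares 4.52% of the exonic bases of Npc1.
Npc2, the soluble partner that hands cholesterol to Npc1 in the lysosome, had a point estimate on the other side of 0. It was at 73.2, 97.9, 77.9 and 91.5 CPM in the FA libraries and at 97.8, 107, 103 and 107 CPM in the DE libraries. DE replicate 1 and FA replicate 3 were nearly equal, and the other DE libraries lay above all FA libraries. The averages were 85.15 ± 11.5 CPM (FA) and 104 ± 4.38 CPM (DE; SD, n = 4 each), with a log2 fold change of 0.29 (SE 0.11, adjusted p = 0.132), so it was not called. Stard4, a cytosolic sterol carrier, and Soat1, the acyltransferase that stores cholesterol as ester, had log2 fold changes of -0.07 and 0.11 with wide overlap, and the sign of each changed under other settings.

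**Figure D4:**
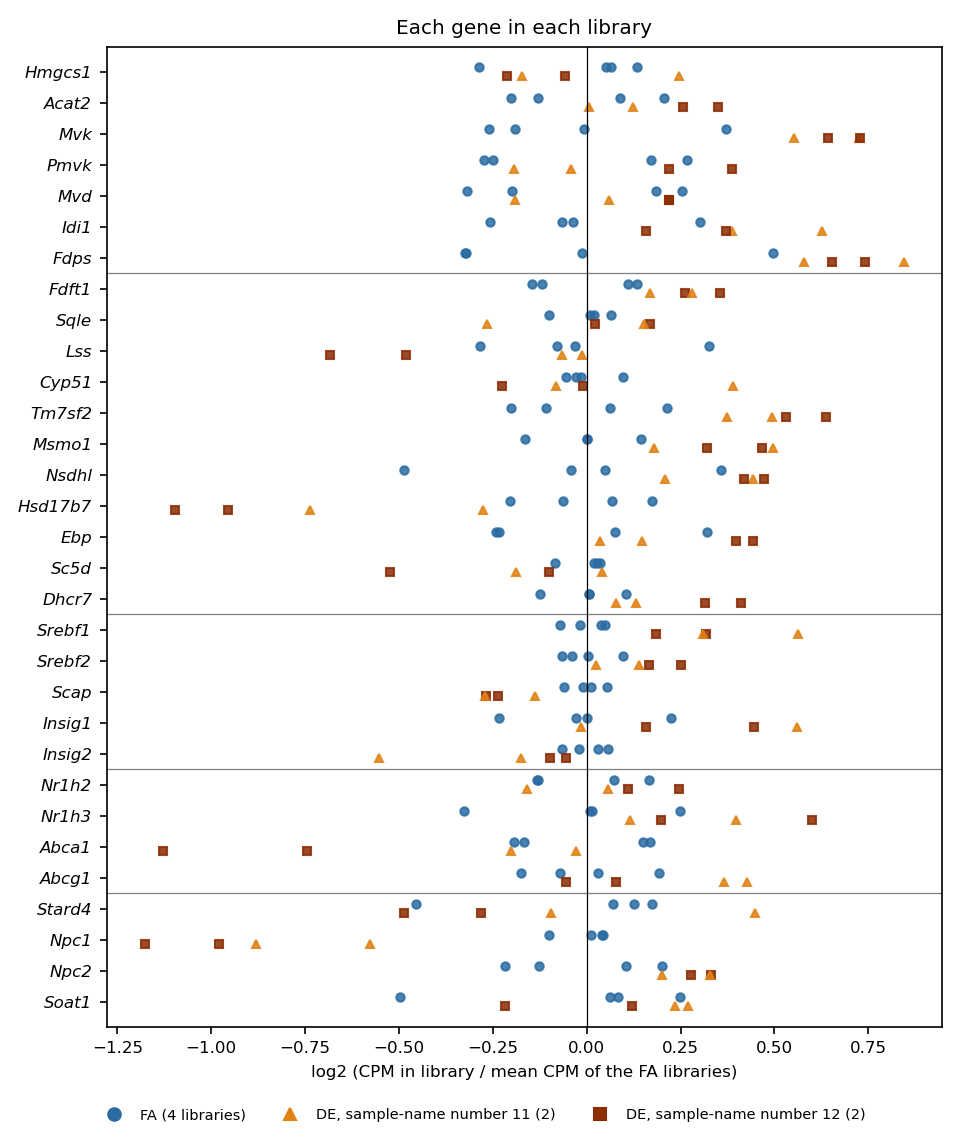
Each of the 31 genes in each of the 8 libraries, as log2 of its CPM over the mean CPM of the 4 FA libraries. Circles are FA, triangles DE replicates 1 and 7 (sample-name number 11) and squares DE replicates 3 and 5 (number 12), and horizontal lines separate the role groups. DE symbols lie wholly right of FA for 6 genes and wholly left for Scap, Hsd17b7 and Npc1, and for Abca1 the squares lie left of the triangles.

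A second list of 31 genes around the same pathway was counted in the same fit, and Faxdc2, not found under that symbol, is not analysed here. This list too was chosen with earlier results of these data known. It held suppliers of acetyl-CoA, branches of the mevalonate pathway, the proteases and ubiquitin ligases of SREBP control, lipoprotein receptors, lysosomal and cytosolic sterol handling, and RXR, and the other 30 genes were tested. By edgeR's quasi-likelihood test 0 were called higher and 4 were called lower in DE (13.3% called, against 5.8% of all tested genes and 2.22% called lower). In this list 10 log2 fold changes were above 0 (33.3%, against 50.55% of all tested genes) and 20 below, and the median was -0.08. At an unadjusted p under 0.05, 1 was higher and 8 were lower (30% of the list, against 25.6% of all tested genes), and DESeq2 called 1 higher and 6 lower (against 6.04% and 4.7% of all genes it tested).
Vldlr, a receptor for triglyceride-rich lipoproteins, was at 261, 218, 252.5 and 193 CPM in the FA libraries and at 175, 134, 164 and 171 CPM in the DE libraries, with no overlap and a log2 fold change of -0.52 (SE 0.12, adjusted p = 0.0354). Nceh1, a hydrolase of cholesterol esters, was at 88.0, 75.6, 71.95 and 79.5 CPM in the FA libraries and at 49.9, 53.9, 51.4 and 45.5 CPM in the DE libraries, and the lowest FA library stood well above the highest DE library. Its difference was a log2 fold change of -0.65 (SE 0.10, adjusted p = 0.00504). Osbp, which exchanges sterol for phosphoinositide between endoplasmic reticulum and Golgi, was at 271.5, 251, 250 and 214 CPM in the FA libraries and at 182, 175, 193 and 195 CPM in the DE libraries, without overlap, and had a log2 fold change of -0.40 (SE 0.10, adjusted p = 0.0383). Lpcat3, a phospholipid acyltransferase and a known LXR target, was at 47.3, 51.5, 46.4 and 48.7 CPM in the FA libraries and at 32.7, 29.6, 27.7 and 31.8 CPM in the DE libraries, again without overlap, and had a log2 fold change of -0.67 (SE 0.09, adjusted p = 0.00300). Lpcat3 and Nceh1 stayed called with any 1 library left out. With the test run against a 25% difference, Lpcat3 stayed called (adjusted p = 0.0418), and Nceh1, Vldlr and Osbp did not (0.0652, 0.342 and 0.605). The call of Vldlr was lost without FA replicate 2, 3 or 4 or DE replicate 3 or 5 (adjusted p from 0.0582 to 0.118) and with offsets for length and GC content (log2 fold change -0.29, adjusted p = 0.0673), and that of Osbp without any library other than FA replicate 6 (0.0503 to 0.126). Vldlr and Osbp also lost their calls with the number in the sample name as a term (0.146 and 0.116) and with number 11 only (0.167 and 0.161). That of Osbp was lost with library totals alone as well (0.0544). For 7 of the 30 genes every DE library lay below every FA library, and for 0 every one lay above, against 7.26% and 7.43% of all tested genes.

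DE libraries were then set apart by the number in their names in a model of 3 groups. Between the 2 DE libraries with 12 and the 2 with 11, 1 of the 31 genes was called, Abca1, at a mean of 115.9 CPM with 11 and 66.0 CPM with 12, a log2 fold change of -0.81 (SE 0.17, adjusted p = 0.0415 by edgeR's quasi-likelihood test). Of all tested genes, 2.06% were called in this comparison, and 23.3% had an unadjusted p under 0.05, as did 7 of the 31 genes. Each DE pair was also compared with the same 4 FA libraries, so the comparisons share their controls. The pair with 11, which has its number in common with FA, differed from FA at the call for 2.99% of all tested genes and for 1 of the 31, Npc1 (log2 fold change -0.72, adjusted p = 0.0105). The pair with 12 did so for 23.4% of all tested genes and for 9 of the 31.
The log2 fold changes against FA of the pairs with 11 and 12 were 0.65 and 0.69 for Mvk and 0.72 and 0.70 for Fdps. For Hsd17b7 they were -0.49 and -1.02, for Npc1 -0.72 and -1.08, for Lss -0.04 and -0.57, and for Abca1 -0.11 and -0.92. The estimates for Mvk and Fdps were thus close in both pairs, with adjusted p of 0.0756 and 0.0772 for the pair with 11 and 0.0161 and 0.0254 for the pair with 12. Between the pairs, 12 over 11, the log2 fold changes were 0.04 (SE 0.20) for Mvk and -0.02 (SE 0.23) for Fdps. For Hsd17b7 the adjusted p was 0.104 for the pair with 11 and 0.0023 for the pair with 12. For Abca1 the lowest values were those of the libraries with 12. Since no FA library carries 12, exposure and number cannot be told apart for that pair.

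**Figure D5:**
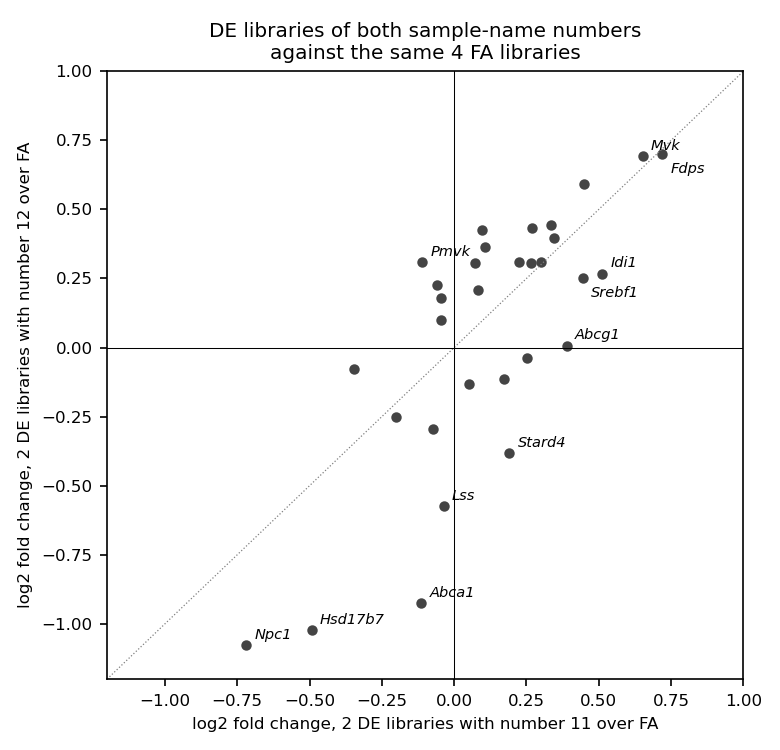
Log2 fold change against the same 4 FA libraries for the 2 DE libraries with sample-name number 11 (horizontal axis) and the 2 with number 12 (vertical axis), with 1 point per gene and the dotted line marking equal values. Mvk and Fdps lie near the line, between 0.65 and 0.72 on both axes, and Abca1 lies at -0.11 on the horizontal and -0.92 on the vertical axis. The shared FA libraries tie the axes together.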

How the data were processed

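Poly-A RNA was prepared with a stranded kit and sequenced. Per the methods, the authors aligned reads to mm10 with Tophat, flagged suspected PCR duplicates but kept them, and obtained fragment counts with featureCounts. What was deposited is a table of raw counts for 27179 Entrez genes in 8 libraries. The strand setting and the treatment of fragments on several genes are not given in the sources used here, and marked duplicates in the counts are not independent molecules. Symbols were matched for 25275 genes through RefSeq on GRCm38.p6. The 1904 without one took 0.384% to 0.581% of each library's counts. The methods state a smaller n per group without naming the libraries, so all 8 were used.

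Counts were filtered with filterByExpr (minimum count 10), scaled by TMM and fitted on exposure alone (glmQLFit, then glmQLFTest, of edgeR 4.0.16 under R 4.3.3). Benjamini-Hochberg adjustment ran over 14966 genes. The biological coefficient of variation was 15.95%. SE is the log2 fold change over the root of the F statistic, and intervals use the degrees of freedom of the fit. Within groups no library was a copy of another, since even the closest of the pairs of 1 group (FA replicates 2 and 4) had a chi-square of 5.37 per gene. Transcript lengths and overlaps are from GENCODE M21. The code was tested on simulated data.

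The members and lists were chosen with earlier results of these data known. Values in every library are given for called genes, for Srebf1, Srebf2, Insig1 and Insig2, and for the 5 genes with the smallest adjusted p in each direction. Hmgcs1, Idi1 and Npc2 were added after their values were seen. Called genes of the second list, written from general knowledge, are named. The 22 alternatives were DESeq2 1.42.0, the likelihood ratio test, limma-voom (limma 3.58.1), 3 other scalings, 2 other filters, the adjusted p alone, a test against 25% difference instead of 0, the number in the sample name as a term, libraries with number 11 only, 1 surrogate variable (sva 3.50.0), offsets for transcript length and GC content (known for 92.55% of tested genes), and each library left out in turn. These alternatives are not all separate checks. The adjusted p alone gave the same 868 calls as the main rule. The number as a term and number 11 only both compare DE replicates 1 and 7 with FA. Oxygen consumption and bisulfite sequencing are not analysed here.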

Additional observations from a re-analysis of the deposited data

Results flagged for a closer look

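Of 62 groups of 4 libraries (31 genes, FA and DE), 1 had a library far from the others by Dixon's criterion, and chance marks about 1 in 20 such groups. Sc5d, a sterol desaturase, was at 28.27 CPM in FA replicate 4 and between 30.37 and 30.69 CPM in the other FA libraries, a gap of 0.87 of the group's range against a critical value of 0.829. The gap is small as a level, and the DE libraries ran from 20.8 to 30.8 CPM.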

How the results depend on the processing

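No paired analysis was run, since the sources used here name no pairs of FA and DE libraries. Replicate numbers are not said to mark pairs. Under each of the 22 alternatives Npc1 stayed lower and called, with adjusted p from 1.87e-08 to 0.0214. The 2 calls higher in DE (Mvk and Fdps) became 5 with DESeq2, with the likelihood ratio test and with library totals alone, 6 with 1 surrogate variable, 4 with length and GC offsets, and 0 with the 25% difference built into the test, with the number in the sample name as a term and with libraries of number 11 only. Leaving out single libraries gave 0 to 3. The 2 calls lower (Npc1 and Hsd17b7) became 1 with the 25% difference built in, with the number as a term and with number 11 only, and 3 with 1 surrogate variable, where Abca1 was added. It was 1 to 2 with a library left out. The 868 calls among all genes became 1620 (DESeq2), 1603 (likelihood ratio test), 114 (25% built in), 448 (number as a term), 260 (number 11 only), 2007 (1 surrogate variable) and 1513 (offsets), and 237 to 1168 with a library left out (lowest without FA replicates 2, 3 or 4 or DE replicates 3 or 5). The 4 calls of the second list became 7 with DESeq2, the likelihood ratio test and 1 surrogate variable, 1 with the 25% built in, 2 with the number as a term, and 2 to 4 with a library left out (2 without FA replicates 2, 3 or 4 or DE replicate 3). The median log2 fold change of the trafficking genes, 0.02, became 0.2215 with the number as a term, 0.2179 with number 11 only, 0.16 with the offsets, 0.14 with 1 surrogate variable and -0.0052 with limma-voom, and lay between -0.12 and 0.13 with a library left out. With the number as a term and with number 11 only, the medians were 0.0710 and 0.0657 for the mevalonate steps (0.19 as reported), 0.11 and 0.10 for the sterol steps (0.24), and 0.0829 and 0.0782 for SREBP control (0.15). That of the LXR and efflux genes, 0.14, became 0.0459 with the offsets and 0.0868 without FA replicate 4, and that of the mevalonate steps 0.12 with 1 surrogate variable and 0.13 without FA replicate 4. With a library left out the medians kept their sign in all groups but trafficking, at 0.13 to 0.27 for the mevalonate steps, 0.18 to 0.28 for the sterol steps, 0.11 to 0.18 for SREBP control and 0.0868 to 0.18 for LXR and efflux. Fewer libraries enter the fits with number 11 only and those without a library. Every FA library carries 11, so the fit with the number as a term takes its exposure difference from DE replicates 1 and 7 alone. Its 448 calls are those of the pair with 11 against FA in the model of 3 groups. For the other changes the cause was not tested.

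Signs changed for 8 genes, none of them called. Hmgcs1 went from -0.04 to 0.0295 with library totals alone. With the number as a term the log2 fold changes were 0.0504 for Hmgcs1, -0.11 for Pmvk, -0.0604 for Mvd, -0.0457 for Sqle, -0.0452 for Nr1h2 and 0.19 for Stard4, and with number 11 only 0.0465, -0.12, -0.0653, -0.0498, -0.0505 and 0.19. With 1 surrogate variable they were 0.0101 for Hmgcs1, -0.0124 for Pmvk, -0.0094 for Mvd, -0.0092 for Sqle and 0.0497 for Stard4, and with the offsets 0.0252 for Hmgcs1, -0.0856 for Pmvk, -0.0920 for Mvd, -0.10 for Nr1h2 and 0.0443 for Stard4. With a library left out, Hmgcs1 ranged from -0.15 to 0.0141, Mvd from -0.0076 to 0.19, Sqle from -0.0212 to 0.11, Cyp51 from -0.11 to 0.11, Stard4 from -0.29 to 0.0484 and Soat1 from -0.0220 to 0.21.

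Nr1h3 and Tm7sf2 had the fewest counts of the 31 genes, 295 and 809 over 8 libraries, with 95% intervals of -0.10 to 0.81 and 0.19 to 0.85. That of Abca1, with 23010 counts, was about as wide as that of Nr1h3 (-0.92 to -0.0052).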
